A study of Mus musculus with 20 samples.

Results

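The 9 genes described here encode channels and pumps that move salt and water across the lung epithelium. They are Scnn1a, Scnn1b and Scnn1g, the α, β and γ subunits of the epithelial sodium channel ENaC, Atp1b1, the β1 subunit of the sodium pump Na,K-ATPase, the water channels Aqp1, Aqp3 and Aqp4, the chloride channel Cftr, and Slc12a2, the sodium-potassium-chloride cotransporter NKCC1. They were taken by symbol from the 23799 genes of a deposited expression table, in which each of the 9 symbols stands on 1 row, and were described across all 4 groups of the study. The rule that picks them goes by symbol alone, but the 9 genes were put together with earlier results of these data known.

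Lung RNA was sequenced from 20 Sprague Dawley rats, an outbred stock, in 4 groups of 5 animals. The groups were bleomycin-treated males, sham-treated males, bleomycin-treated females and sham-treated females, and the title of the study names the sex difference after acute lung injury as its subject. Bleomycin is a DNA-breaking drug that injures the alveolar lining. All groups came from 1 cohort matched for body weight, each library held 1 animal, and no transgene or mutation is named in any group. The dose and route of bleomycin, the time to tissue collection and the age of the animals are not given in the labels.

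In the healthy air space, sodium enters the epithelial cell through ENaC at the apical side and is pumped out by Na,K-ATPase at the basal side, and water follows the salt out of the air space. Aquaporins give water a path through membranes, Aqp1 mainly in the endothelium of small vessels, Aqp4 in basolateral epithelial membranes and Aqp3 in basal cells of the airway. CFTR lets chloride through the apical membrane, and NKCC1 loads chloride into the cell from the basolateral side, a step of fluid secretion. ENaC works as a complex of α, β and γ, of which α is needed for fluid clearance in newborn mice.

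Coordinates are given as the deposited table gives them, since the labels name 2 rat references that do not belong together and the build is therefore not settled. Scnn1g (ENSRNOG00000017842) lies on chromosome 1 at 176304942 to 176338816 on the plus strand. Scnn1b (ENSRNOG00000030981) follows at 176430103 to 176484451 on the same strand, 91.3 kb further on. Scnn1a (ENSRNOG00000019368) lies elsewhere, on chromosome 4 at 158122962 to 158146181, plus strand. Aqp1 (ENSRNOG00000011648) at 84482512 to 84494690 and Cftr (ENSRNOG00000055103) at 46560885 to 46728756 are also on chromosome 4, both on the plus strand. Slc12a2 (ENSRNOG00000015971) is on chromosome 18 at 51348302 to 51416440, plus strand, and Aqp4 (ENSRNOG00000016043) on chromosome 18 at 6507903 to 6524856, minus strand. Atp1b1 (ENSRNOG00000002934) is on chromosome 13 at 76786578 to 76807459 and Aqp3 (ENSRNOG00000009797) on chromosome 5 at 56239201 to 56244720, both on the minus strand. The table lists all 9 as protein coding.

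The libraries held between 68.6 and 87.5 M counts each, M standing for mega. Lung markers were high in every library: the summed FPKM (fragments per kilobase per M fragments, a level scaled for gene length) of 10 alveolar type 2 genes was 3891 to 14731 in bleomycin males, 12900.5 to 16485 in sham males, 10014 to 16472 in bleomycin females and 15072 to 19012 in sham females. In 5 libraries, bleomycin males 2 and 5, sham males 3 and 5 and sham female 1, a transcript of a neighbouring organ (Alb of liver, Acta1 of skeletal muscle, Adipoq of fat or Myl7 of heart atrium) reached at least 50 FPKM, so values without these 5 are given beside the changes of the 9 genes that they move most.

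On the FPKM scale, the levels of the 9 genes fell into 3 tiers. Aqp1, Atp1b1 and Scnn1a held ranks 1 to 3 in all 20 libraries. Scnn1g, Slc12a2, Aqp4 and Scnn1b formed the middle tier, with overlapping levels except in bleomycin females. There Scnn1g, at 46.2 to 57.4 FPKM, lay above the rest of the tier, at 16.6 to 29.9. Cftr and Aqp3 were mostly the lowest. Aqp1 averaged 175 ± 17.9 FPKM in bleomycin males, 145 ± 10.0 in sham males, 179.6 ± 27.7 in bleomycin females and 148 ± 17.3 in sham females (SD, n = 5 each, as for all means here). Cftr averaged 3.08 ± 1.18 FPKM in bleomycin males, 2.78 ± 0.287 in sham males, 3.58 ± 1.16 in bleomycin females and 2.24 ± 0.523 in sham females. Scnn1a averaged 55.8 ± 22.6 FPKM in bleomycin males, 93.8 ± 33.3 in sham males, 80.4 ± 12.4 in bleomycin females and 124 ± 29.5 in sham females. Within each tier, neighbours in this order overlapped in most groups, except for Atp1b1 and Scnn1a. Atp1b1 lay above Scnn1a in bleomycin males (132 to 247 against 24.6 to 80.3 FPKM). It did so in bleomycin females too (103 to 178 against 60.5 to 94.4 FPKM), while the 2 genes overlapped in the sham groups. No test of the order was made.

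**Figure D1:**
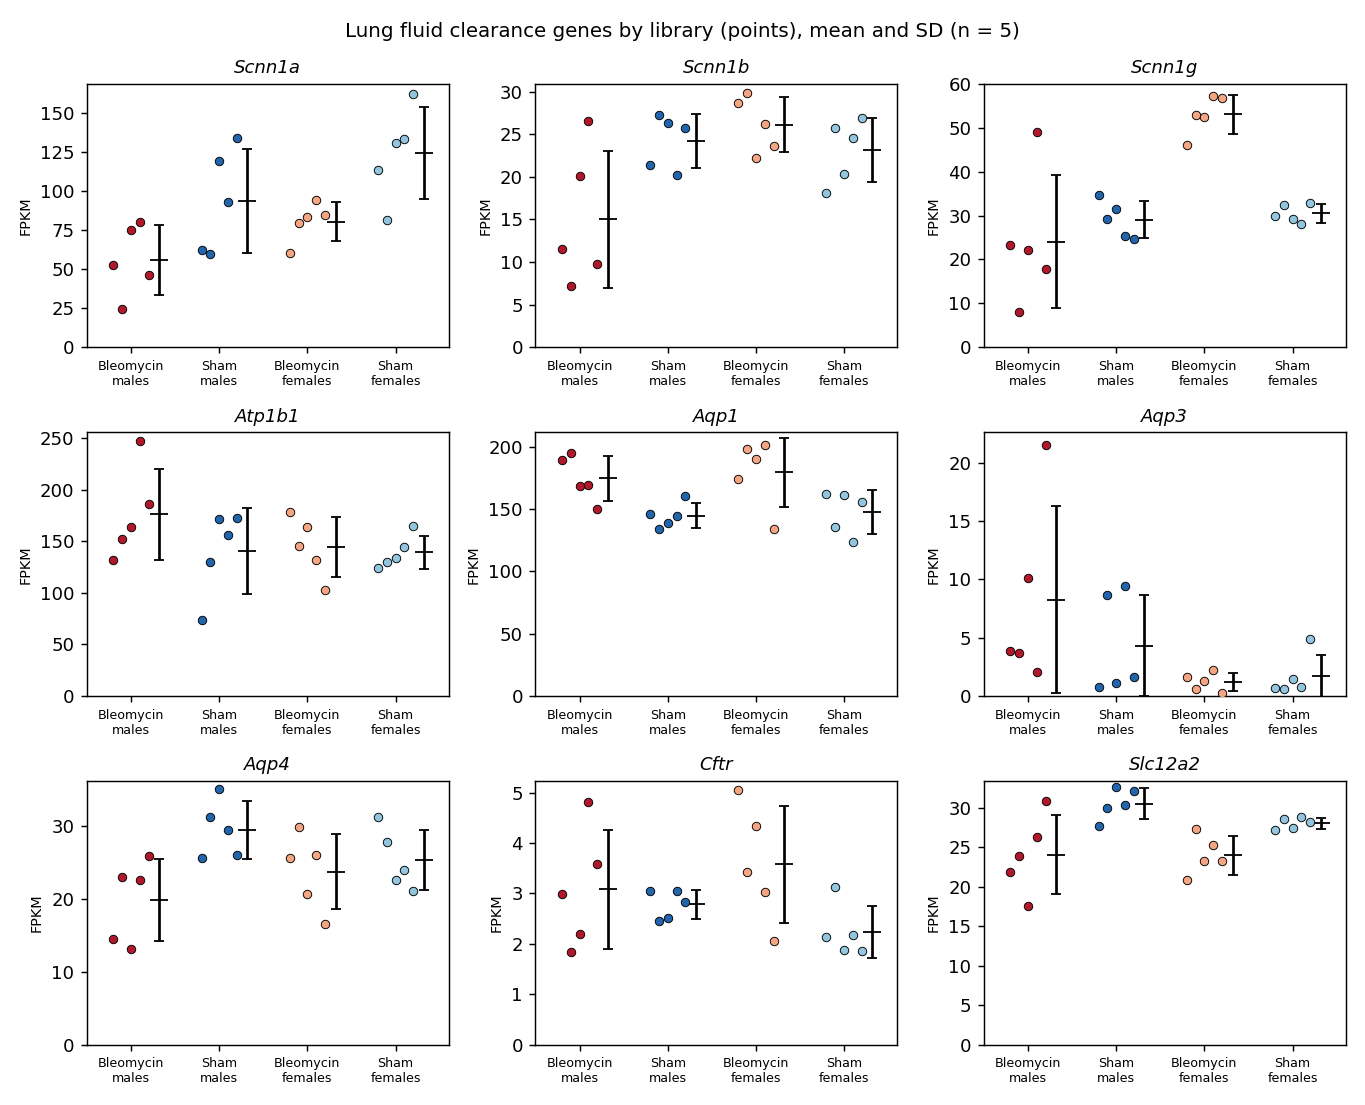
FPKM of the 9 genes in each of the 20 libraries (points, 5 per group, vertical axes starting at 0), with the group mean and SD. The 5 bleomycin females lie between 46.2 and 57.4 FPKM for Scnn1g, above the 5 sham females at 28.1 to 32.9, while bleomycin males spread from 8.01 to 49.0.

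Genes were called as changed at an adjusted p under 0.05 by edgeR's quasi-likelihood test with Benjamini-Hochberg adjustment over 15875 tested genes. Fold changes are log2, with the standard error (SE) after ±, and bleomycin minus sham unless stated otherwise. In males, Slc12a2 and Aqp4 fell and none of the 9 rose. This is 2 of 9 against 41.9% of all tested genes called in males (22.6% higher and 19.3% lower), a share no higher than that of genes at large. In females none of the 9 passed, against 21.6% of all tested genes (13.2% higher and 8.38% lower). Averaged over both sexes, Aqp1 rose and Scnn1a, Aqp4 and Slc12a2 fell, which is 4 of 9 against 45.2% of all tested genes (24.2% higher and 21.0% lower). The median of the 9 fold changes was −0.27 in males, against 0.04 over all tested genes, and 0.02 in females, against 0.00 over all tested genes.

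Among the ENaC subunits, the α subunit fell on average over the sexes. Scnn1a was at 52.5, 24.6, 75.1, 80.3 and 46.6 FPKM in the 5 bleomycin males, against 62.2, 59.9, 119, 93.4 and 134 in the 5 sham males. In females it was at 60.5, 79.4, 83.5, 94.4 and 84.5 FPKM after bleomycin, against 114, 81.8, 131, 133 and 162 after sham. The ranges overlapped in both sexes, and the 2 highest sham males were libraries with a neighbouring-organ transcript. Averaged over the sexes Scnn1a fell by 0.72 ± 0.22 (adjusted p = 0.011), to 0.608 of the sham level. Within each sex the change was of similar size, −0.77 ± 0.31 in males (adjusted p = 0.0511) and −0.67 ± 0.31 in females (adjusted p = 0.129), and neither passed. With only the 2 groups of a sex in the model, the female change passed (−0.67, adjusted p = 0.0145). The male change did not (−0.77, adjusted p = 0.136). Without the 5 libraries with neighbouring-organ transcripts the averaged change was −0.36 and no longer passed (adjusted p = 0.119), the male change alone was −0.0024 (adjusted p = 0.996) and the female change −0.72 (adjusted p = 0.0347). The male change passed without bleomycin male 3 (adjusted p = 0.028) or 4 (adjusted p = 0.0216), without sham male 1 (adjusted p = 0.0293) or 2 (adjusted p = 0.0294), and without sham female 2 (adjusted p = 0.0491). In whole-lung RNA, fewer cells that carry a transcript and less of it per cell cannot be told apart.

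The β subunit passed in neither sex. Scnn1b was at 11.5, 7.19, 20.1, 26.5 and 9.72 FPKM in bleomycin males, against 21.3, 27.3, 26.3, 20.2 and 25.7 in sham males. Bleomycin females had 28.6, 29.8, 22.2, 26.2 and 23.6 FPKM, against 18.0, 25.7, 20.4, 24.6 and 26.8 in sham females. Of the bleomycin males, 3 lay below every library of the other groups, 1 lay just below the sham male range and 1 inside it. The male change was −0.68 ± 0.28 (adjusted p = 0.0582) and the female change 0.14 ± 0.28 (adjusted p = 0.768). Leaving out bleomycin male 4, the highest of its group, took the male change past the threshold, to −1.01 (adjusted p = 0.00346). It also passed without bleomycin male 3, at −0.84 (adjusted p = 0.0299). Averaged over the sexes the change was −0.27 ± 0.20 (adjusted p = 0.278), and without bleomycin male 4 it was −0.43 (adjusted p = 0.0434). Without the 5 libraries with neighbouring-organ transcripts the male change was much smaller, at −0.17 (adjusted p = 0.629), and the average −0.06 (adjusted p = 0.786).

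The γ subunit was the one gene of the 9 whose bleomycin and sham ranges did not overlap in a sex. Scnn1g was at 46.2, 53.1, 52.5, 57.4 and 56.8 FPKM in bleomycin females, against 30.0, 32.5, 29.1, 28.1 and 32.9 in sham females. Among all tested genes, 14.9% likewise had every bleomycin female above every sham female, 8.77% had every one below, and 23.7% were apart in either direction. In males no gene of the 9 was apart, against 22.6% of all tested genes (12.6% higher and 9.98% lower). In males Scnn1g was at 23.2, 8.01, 22.1, 49.0 and 17.8 FPKM after bleomycin, against 34.8, 29.2, 31.4, 25.3 and 24.7 after sham. Here 4 of 5 bleomycin males lay below every sham male and bleomycin male 4 lay above all of them.

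The female change of Scnn1g was 0.77 ± 0.30, or 1.70-fold, and missed the threshold (adjusted p = 0.0701), in a model in which all 4 groups share 1 estimate of the spread. With only the 2 female groups in the model the change was the same size and passed (adjusted p = 2.06e-05), and it also passed without bleomycin male 2 (adjusted p = 0.0106) or bleomycin male 4 (adjusted p = 0.00952), the lowest and highest of that group. Without the 5 libraries with neighbouring-organ transcripts the female change was 0.74 (adjusted p = 0.0152), the average over the sexes 0.44 (adjusted p = 0.0324) and the male change 0.14 (adjusted p = 0.681). With all libraries the male change was −0.27 ± 0.29 (adjusted p = 0.486), and without bleomycin male 4 it was −0.74 (adjusted p = 0.0101), so its direction depended on which libraries were left out. The difference between the female and the male response was 1.04 ± 0.42, with an unadjusted p of 0.0221 and an adjusted p of 0.122 (edgeR). Without bleomycin male 4 that difference was 1.50 for Scnn1g (adjusted p = 0.00289) and 1.15 for Scnn1b (adjusted p = 0.0262), against 0.82 ± 0.40 for Scnn1b with all libraries (adjusted p = 0.192). Without the 5 libraries with neighbouring-organ transcripts it was 0.60 for Scnn1g (adjusted p = 0.279) and 0.22 for Scnn1b (adjusted p = 0.735). None of the 9 genes differed in response between the sexes with all libraries, against 5.69% of all tested genes (3.65% higher and 2.04% lower in females).

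Because the 3 subunits are measured in the same library, their levels can be set against each other. The ratio of Scnn1g to Scnn1a in FPKM was 0.411 ± 0.12 in bleomycin males and 0.353 ± 0.161 in sham males. It was 0.668 ± 0.060 in bleomycin females, ranging from 0.608 to 0.764, and 0.260 ± 0.081 in sham females, ranging from 0.203 to 0.398. The 2 female groups were apart on this ratio, while the male groups overlapped widely. The ratio of Scnn1b to Scnn1a was 0.334 ± 0.089 in bleomycin females and 0.196 ± 0.067 in sham females, against 0.264 ± 0.051 in bleomycin males and 0.285 ± 0.112 in sham males. The ratio of Scnn1b to Scnn1g was 0.495 ± 0.091 in bleomycin females and 0.756 ± 0.107 in sham females, against 0.677 ± 0.207 in bleomycin males and 0.845 ± 0.160 in sham males. These ratios are descriptions of genes already seen and carry no test.

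**Figure D2:**
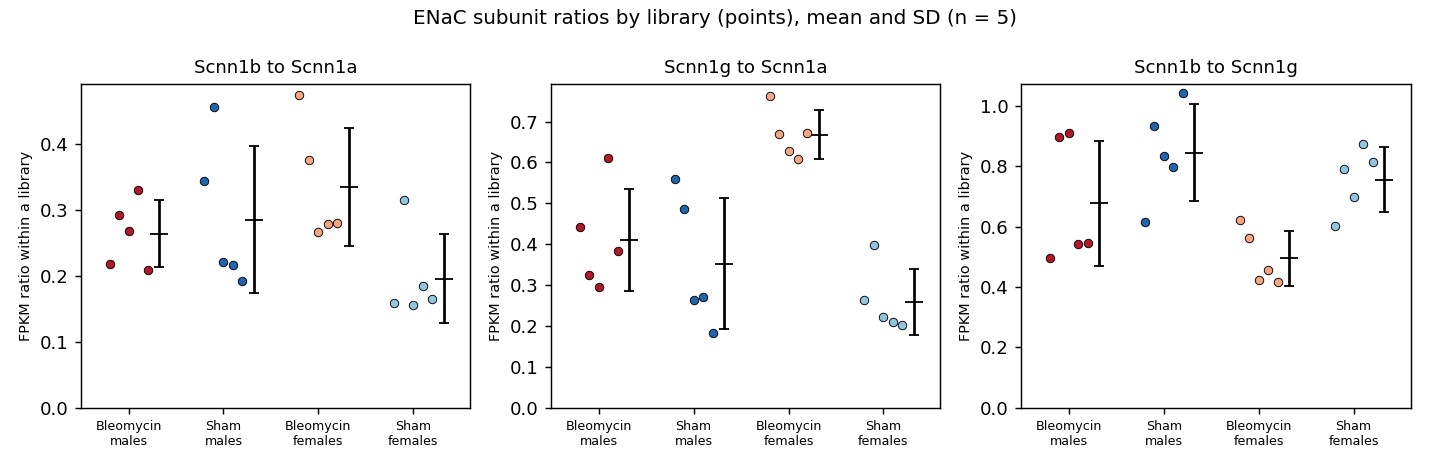
Ratios of Scnn1b to Scnn1a, Scnn1g to Scnn1a and Scnn1b to Scnn1g, computed from FPKM within each library (points, 5 per group, linear axes from 0), with group means and SD. The Scnn1g to Scnn1a ratio is 0.608 to 0.764 in bleomycin females and 0.203 to 0.398 in sham females.

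For the sodium pump, Atp1b1, which carries the α subunit to the membrane, showed no change that passed. It was at 132, 153, 164, 247 and 187 FPKM in bleomycin males, against 73.2, 129, 172, 156 and 173 in sham males, and the ranges overlapped. It averaged 145 ± 29.0 FPKM in bleomycin females and 139 ± 16.0 in sham females. The changes were 0.29 ± 0.23 in males (adjusted p = 0.334) and 0.02 ± 0.23 in females (adjusted p = 0.961). Without the 5 libraries with neighbouring-organ transcripts they were 0.64 in males (adjusted p = 0.118) and −0.03 in females (adjusted p = 0.943).

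Among the 3 aquaporins, Aqp1 rose and Aqp4 fell on average over the sexes, and Aqp3 did not pass. Aqp1 was at 189, 195, 169, 169.7 and 150.4 FPKM in bleomycin males, against 146, 134, 139, 145 and 161 in sham males, so that 4 of 5 bleomycin males exceeded every sham male. In females it was at 174, 199, 190.0, 202 and 134 FPKM after bleomycin, against 162, 136, 162, 123 and 155 after sham, with bleomycin female 5 low. The change was 0.23 ± 0.12 in males (adjusted p = 0.131) and 0.26 ± 0.12 in females (adjusted p = 0.142), and averaged over the sexes Aqp1 rose by 0.24 ± 0.09, or 1.19-fold (adjusted p = 0.0258). That call was lost without bleomycin female 4 (adjusted p = 0.0505) or sham female 4 (adjusted p = 0.0513). The female change passed without bleomycin female 5, at 0.36 (adjusted p = 0.0222). The male change was 0.36 (adjusted p = 0.0924) without the 5 libraries with neighbouring-organ transcripts.

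Aqp1 is known from capillary endothelium and from red cells, so the markers of both are given beside it. Of 11 endothelial markers tested, 1 rose and 7 fell in males, and 4 rose and 2 fell in females. Of all tested genes, 22.6% rose and 19.3% fell in males, and 13.2% rose and 8.38% fell in females. Their summed FPKM was 388 to 899 in bleomycin males and 1012 to 1271 in sham males, and 884 to 1241 in bleomycin females and 941 to 1090.3 in sham females. The summed FPKM of 8 red cell genes was 57.0 to 383 in bleomycin males, 1244 to 2604 in sham males, 257 to 1045 in bleomycin females and 626 to 1498 in sham females. In males, 4 of 5 bleomycin values of Aqp1 lay above the sham range. Both marker sums lay below their sham male range in all 5 bleomycin males. The part of endothelium and red cells in the level of Aqp1 was not tested.

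Aqp4 fell in males. It was at 14.6, 23.0, 13.2, 22.7 and 26.0 FPKM in bleomycin males, against 25.6, 31.3, 35.1, 29.4 and 26.0 in sham males, so that only bleomycin male 5 reached the sham range. The male change was −0.62 ± 0.18 (adjusted p = 0.00944), a fall to 0.653 of the sham level, and it passed whichever single library was left out, with adjusted p between 0.005 and 0.0323. Bleomycin females had 25.6, 29.9, 20.7, 26.0 and 16.6 FPKM, against 31.3, 27.8, 22.5, 24.0 and 21.1 in sham females, and the change of −0.11 ± 0.18 did not pass (adjusted p = 0.694). The female minus the male response was 0.50 ± 0.25, which did not pass (adjusted p = 0.209), so a sex difference in the response of Aqp4 was not shown. The average over the sexes was −0.36 ± 0.13 (adjusted p = 0.0231), and the call was lost at −0.32 both without sham male 3 (adjusted p = 0.0511) and with library totals in place of TMM scaling factors (adjusted p = 0.0508).

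Aqp5, the water channel of the apical alveolar type 1 membrane, was measured beside the 9 genes and fell in males. It averaged 86.2 ± 42.7 FPKM in bleomycin males and 224 ± 29.6 in sham males, and 179.8 ± 21.9 in bleomycin females and 247 ± 15.5 in sham females. Its change was −1.38 ± 0.27 in males (adjusted p = 0.000527) and −0.49 ± 0.27 in females (adjusted p = 0.20). The ratio of Aqp4 to Aqp5 in FPKM was 0.314 ± 0.237 in bleomycin males and 0.133 ± 0.025 in sham males, with bleomycin males 2 and 5 at 0.647 and 0.484. Both of these are libraries with a neighbouring-organ transcript. The ratio was 0.136 ± 0.040 in bleomycin females and 0.103 ± 0.020 in sham females.

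Aqp3, the aquaglyceroporin of airway basal cells, was low and uneven. It was at 3.88, 3.67, 10.1, 2.10 and 21.5 FPKM in bleomycin males, against 0.760, 8.66, 1.15, 9.44 and 1.63 in sham males. It was at 1.66, 0.575, 1.26, 2.25 and 0.253 FPKM in bleomycin females, against 0.709, 0.559, 1.42, 0.806 and 4.92 in sham females. The changes of 0.88 ± 0.81 in males (adjusted p = 0.409) and −0.53 ± 0.82 in females (adjusted p = 0.693) were within the spread of the libraries. The male change took the opposite direction, −0.18 (adjusted p = 0.909), without the 5 libraries with neighbouring-organ transcripts. The summed FPKM of 3 basal cell markers, Krt5, Tp63 and Krt17, also spread widely, at 3.51, 7.62, 16.9, 2.99 and 22.7 in bleomycin males and 0.429, 19.4, 3.00, 17.9 and 8.04 in sham males. It was 0.254 to 7.21 in bleomycin females and 2.03 to 11.1 in sham females. Over the 20 libraries, after subtraction of group means, the correlation of Aqp3 with this sum was 0.73 (Pearson's r of log2 values, 0.68 without bleomycin males). Both values of a point come from 1 library and share its depth, and the part of basal cells in the levels of Aqp3 was not tested.

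On the chloride side, the cotransporter fell. Slc12a2 was at 21.8, 24.0, 17.5, 26.3 and 30.9 FPKM in bleomycin males, against 27.7, 30.0, 32.6, 30.4 and 32.1 in sham males. In females it was at 20.9, 27.4, 23.2, 25.3 and 23.3 FPKM after bleomycin, against 27.2, 28.6, 27.5, 28.8 and 28.2 after sham. In each sex 4 of 5 bleomycin libraries lay below every sham library, and sham females were the tightest group for this gene, with an SD of 0.694 FPKM. The change was −0.39 ± 0.11 in males (adjusted p = 0.008) and −0.26 ± 0.11 in females (adjusted p = 0.10). Averaged over the sexes Slc12a2 fell by 0.32 ± 0.08 (adjusted p = 0.00217), to 0.80 of the sham level, and this call held without any 1 library. With only the 2 male groups in the model the male call was just missed (adjusted p = 0.0522). With only the 2 female groups the female change, at −0.26, passed (adjusted p = 0.0258).

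Cftr was at 2.99, 1.83, 2.20, 4.81 and 3.59 FPKM in bleomycin males, against 3.05, 2.45, 2.52, 3.06 and 2.84 in sham males. In females it was at 5.06, 3.43, 4.33, 3.02 and 2.06 FPKM after bleomycin, against 2.13, 3.14, 1.89, 2.17 and 1.85 after sham. The SD was 1.18 FPKM in bleomycin males and 0.287 in sham males, and 1.16 in bleomycin females and 0.523 in sham females, so the bleomycin libraries were the more spread in both sexes. The female change was 0.66 ± 0.25, or 1.58-fold (adjusted p = 0.070), and the male change 0.12 ± 0.25 (adjusted p = 0.732). The female change passed without bleomycin female 5 at 0.81 (adjusted p = 0.0217), without sham female 2 at 0.80 (adjusted p = 0.0408), and without bleomycin male 2 (adjusted p = 0.0447) or 4 (adjusted p = 0.0373). With only the 2 female groups in the model it just passed (adjusted p = 0.0494). Averaged over the sexes the change was 0.39 ± 0.18 (adjusted p = 0.0835), and it passed without bleomycin male 2 (adjusted p = 0.0283), bleomycin female 5 (adjusted p = 0.0287) or sham female 2 (adjusted p = 0.0452). Leaving out the 5 libraries with neighbouring-organ transcripts gave 0.27 in males (adjusted p = 0.561) and 0.63 in females (adjusted p = 0.122). Markers of ionocytes, the rare airway cells richest in CFTR, were low, with a summed FPKM over 5 genes of 1.35 to 3.84 in bleomycin males, 1.38 to 2.26 in sham males, 1.29 to 3.54 in bleomycin females and 1.93 to 3.10 in sham females.

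**Figure D3:**
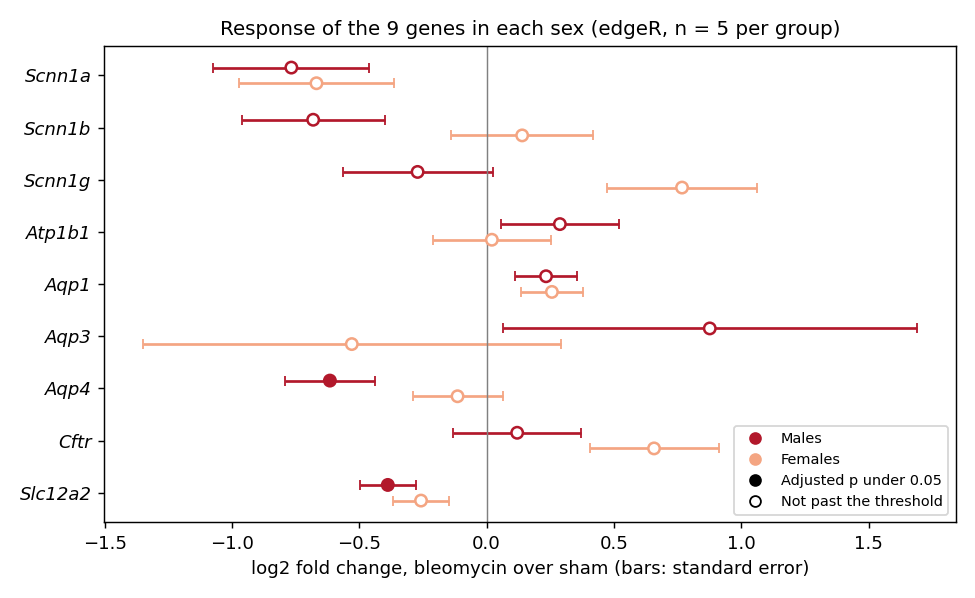
Log2 fold change of bleomycin over sham for the 9 genes in males and in females, with bars for the SE (edgeR, n = 5 per group). Filled points have an adjusted p under 0.05 and open points do not. The 3 ENaC subunits spread from −0.67 to 0.77 in females and from −0.77 to −0.27 in males.

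Between the sham groups no sex difference was detected. No gene of the 9 differed between sham females and sham males by edgeR, none had an unadjusted p under 0.05, and DESeq2 and limma also called none. In all, 0.523% of tested genes differed between the sham groups, 0.113% higher and 0.409% lower in females. Among bleomycin animals 2 of 9 differed, against 20.4% of all tested genes (11.7% higher and 8.72% lower in females). Scnn1g was 2.18-fold higher in bleomycin females than in bleomycin males (log2 1.12 ± 0.30, adjusted p = 0.0149), at 53.2 ± 4.47 FPKM in bleomycin females and 24.0 ± 15.2 FPKM in bleomycin males. The log2 difference of Scnn1b was 0.77 ± 0.28 (adjusted p = 0.0579) and passed without bleomycin male 3 (adjusted p = 0.039) or 4 (adjusted p = 0.00347), but was 0.37 (adjusted p = 0.302) without the 5 libraries with neighbouring-organ transcripts. Aqp3 was lower in bleomycin females (log2 −2.73 ± 0.86, adjusted p = 0.0328), at 1.20 ± 0.809 FPKM there and 8.26 ± 8.03 FPKM in bleomycin males.

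Both sex differences depended on the setting. That of Scnn1g passed without any 1 library, between 0.89 and 1.59, but was 0.70 (adjusted p = 0.0636) without the 5 libraries with neighbouring-organ transcripts and 1.11 (adjusted p = 0.11) with only the 2 bleomycin groups in the model. With the share of mitochondrial counts as a covariate it was 0.53 (adjusted p = 0.271). That share averaged 4.94 ± 0.44% in bleomycin females and 7.63 ± 1.97% in bleomycin males. The difference in Aqp3 was lost on leaving out bleomycin female 2, 3 or 5 or bleomycin male 3 or 5, with adjusted p between 0.0578 and 0.0913. It was −2.21 (adjusted p = 0.117) without the 5 libraries with neighbouring-organ transcripts and −1.66 (adjusted p = 0.318) with the mitochondrial covariate.

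The ENaC subunits varied together from library to library when bleomycin males were among them. After subtraction of group means, the correlation over 20 libraries was 0.81 for Scnn1b with Scnn1g, 0.68 for Scnn1a with Scnn1b and 0.64 for Scnn1a with Scnn1g. Over the 15 libraries without bleomycin males these were 0.12, 0.22 and −0.02. Scnn1b and Scnn1g were most spread in bleomycin males (SD 8.07 and 15.2 FPKM). The lower values without that group do not show that covariation is absent there. Both values of a point come from 1 library and share its depth, and the correlations carry no test.

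Markers of alveolar type 1 cells, the flat cells that cover most of the alveolar surface and carry ENaC, are given beside the subunits. The summed FPKM of 12 such markers was 1936, 790.2, 1855, 2773 and 1158 in bleomycin males, against 2933 to 4076 in sham males. It was 2590.4 to 3422 in bleomycin females, against 3252 to 4160.2 in sham females. In males 0 of the 12 rose and 7 fell, with a median change of −1.14, and in females 0 rose and 3 fell, with a median of −0.45. Of 10 alveolar type 2 markers, 0 rose in either sex, 4 fell in males and 1 fell in females. The shares of all tested genes were 22.6% higher and 19.3% lower in males, and 13.2% higher and 8.38% lower in females. No defining marker of either type was at 0.

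Bleomycin male 2 was lowest both in the alveolar type 1 sum and in all 3 subunits, and bleomycin male 4 was highest of its group in both. Over 20 libraries, after subtraction of group means, the correlation with the alveolar type 1 sum was 0.71 for Scnn1a, 0.68 for Scnn1b and 0.92 for Scnn1g. Without bleomycin males these were 0.36, −0.45 and 0.45. With the summed FPKM of the alveolar type 2 markers it was 0.75, 0.84 and 0.86 in the same order, and 0.40, 0.47 and 0.02 without bleomycin males. The type 1 sum was most spread in bleomycin males, with an SD of 767 FPKM against 337 to 429 in the other groups. The correlations without bleomycin males therefore rest on a narrower range and do not show that covariation is absent there. Scnn1g lay higher in bleomycin females than in sham females. The alveolar type 1 sum averaged 3000.4 ± 337 FPKM in bleomycin females and 3879 ± 361 in sham females. The part of alveolar type 1 or type 2 cells in the levels of the subunits was not tested.

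**Figure D4:**
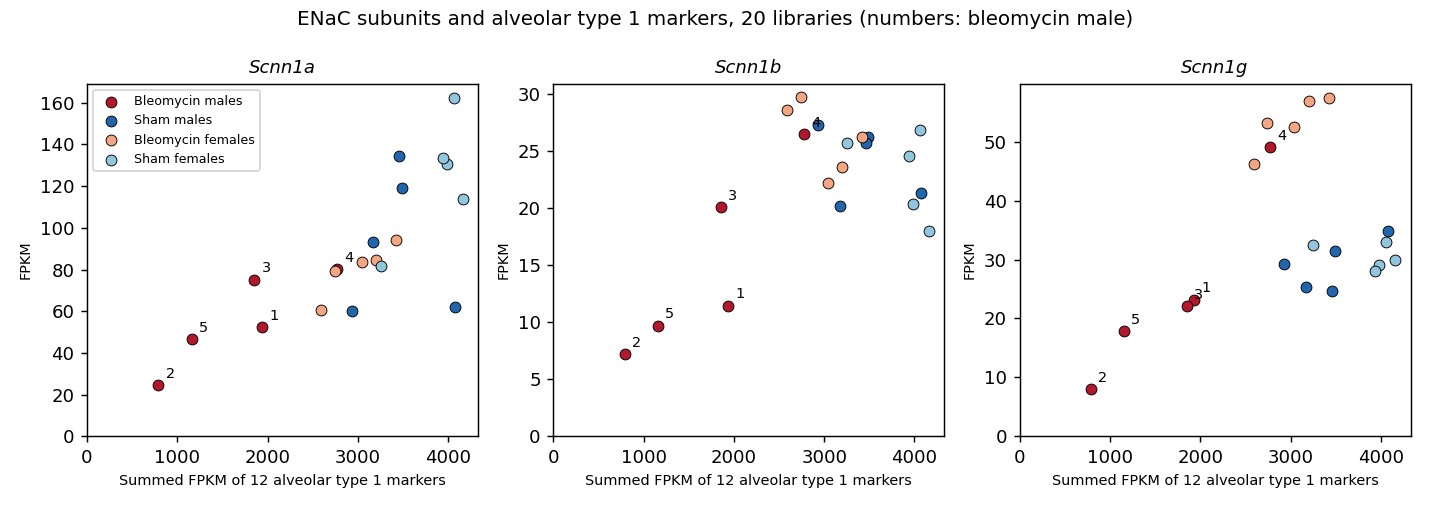
FPKM of the ENaC subunits against the summed FPKM of 12 alveolar type 1 markers, 1 point per library, coloured by group. Bleomycin males spread from 790.2 to 2773 on the horizontal axis. For Scnn1g the bleomycin females lie above the sham females, and the marker sum of bleomycin females is lower on average.

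For each of the 9 genes, the 2 genes with the most similar pattern among 12721 were found by the same within-group correlation over 20 libraries. They were Myh14 (r = 0.92) and C13h1orf116 (r = 0.92) for Scnn1a, Alg9 (r = 0.93) and Dtd1 (r = 0.92) for Scnn1b, and Npw (r = 0.95) and Nectin3 (r = 0.93) for Scnn1g. The likeness of Myh14 to Scnn1a was as high without bleomycin males (r = 0.92), while that of Nectin3 to Scnn1g was 0.53 there. For Atp1b1 they were Ubap2 (r = 0.91) and Myo1e (r = 0.88), for Aqp1 Dhx38 (r = 0.78) and Plat (r = 0.78), and for Aqp3 Gabarapl2 (r = 0.73) and Cyp2t1 (r = 0.72). For Aqp4 they were Msi2 (r = 0.92) and Ift80 (r = 0.87), for Cftr Slc16a6 (r = 0.91) and Gk (r = 0.88), and for Slc12a2 Epb41l4b (r = 0.93) and Thsd4 (r = 0.90). The highest of so many correlations are high by selection, and no p is given.

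Other genes of the same transport system were read as lists, of which only genes past the filter on low FPKM were tested. Where a list had untested genes, the number found in the table is given too. Over all tested genes, 22.6% were called higher and 19.3% lower in males, and 13.2% higher and 8.38% lower in females. The counts of each list below are to be read beside these shares and were not tested against them. Among 11 genes of the sodium pump and its FXYD subunits, small proteins that tune the pump, 5 rose and 0 fell in males (median change 0.51), and 2 rose and 1 fell in females (median 0.45). Fxyd5, also called dysadherin for its effect on cell adhesion, rose by 1.20 ± 0.19 in males (adjusted p = 0.000105), at 47.5 ± 15.2 FPKM after bleomycin and 20.4 ± 3.31 after sham. In females its change was 0.48 ± 0.19 (adjusted p = 0.0844). Fxyd2, the γ subunit of the kidney pump, rose in both sexes, by 2.42 ± 0.36 in males (adjusted p = 4.51e-05) and 1.00 ± 0.34 in females (adjusted p = 0.0432). Fxyd4 was called higher in males, by 2.48 ± 0.45 (edgeR, adjusted p = 0.000284), but at low levels. It was at 0.679 to 2.61 FPKM in bleomycin males and 0.147 to 0.442 in sham males. It passed the filter of 0.5 FPKM only through bleomycin males, the group where it is high, so its call carries little weight.

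Of 16 regulators of ENaC, 5 rose and 4 fell in males (median 0.03), and 4 rose and 4 fell in females (median 0.11). Nedd4l, the ubiquitin ligase that takes ENaC off the membrane, fell in both sexes, by 0.72 ± 0.18 in males (adjusted p = 0.00357) and 0.73 ± 0.18 in females (adjusted p = 0.0067). Sgk1, the kinase that restrains Nedd4l, rose in both, by 0.92 ± 0.20 in males (adjusted p = 0.00125) and 0.86 ± 0.20 in females (adjusted p = 0.00424). Prss8, the protease prostasin that cleaves the γ subunit and opens the channel, fell by 0.64 ± 0.14 in males (adjusted p = 0.00126) and by 0.51 ± 0.14 in females (adjusted p = 0.0126). Tmprss4, another activating protease, rose by 1.52 ± 0.29 in males (adjusted p = 0.000479) and its female change was 0.58 ± 0.29 (adjusted p = 0.166). Cav1, the main caveolar coat protein, is also on the alveolar type 1 list and fell in both sexes, by 1.48 ± 0.19 in males (adjusted p = 9.6e-06) and 0.89 ± 0.18 in females (adjusted p = 0.00165). Nedd4 was the one of the 16 regulators with a sex difference in response that passed, 0.54 ± 0.16 (edgeR, adjusted p = 0.0481). Of all tested genes, 5.69% passed for that difference.

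Of 12 tested hormone receptors of fluid clearance and their partner genes (of 15 found), 2 rose and 7 fell in males (median −0.65), and 1 rose and 2 fell in females (median −0.20). Nr3c2, the mineralocorticoid receptor through which aldosterone induces ENaC, fell in both sexes, by 1.83 ± 0.16 in males (adjusted p = 4.88e-07) and 1.12 ± 0.16 in females (adjusted p = 3.35e-05). It averaged 1.59 ± 0.54 FPKM in bleomycin males and 5.44 ± 0.586 in sham males, and 2.31 ± 0.20 in bleomycin females and 4.95 ± 0.616 in sham females. Nr3c1, the glucocorticoid receptor, fell by 0.70 ± 0.13 in males (adjusted p = 0.00028). In females its change of −0.31 ± 0.13 did not pass (adjusted p = 0.0862).

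Among these 12 tested genes 2 differed in response between the sexes, against 5.69% of all tested genes. Adrb1 fell by 0.92 ± 0.17 in males (adjusted p = 0.000305), with a difference of 0.92 ± 0.24 between the responses (adjusted p = 0.0345), and averaged 7.21 ± 1.79 FPKM in bleomycin females and 7.03 ± 0.786 in sham females. Vipr1, a receptor of vasoactive intestinal peptide, fell in both sexes, by 0.94 ± 0.24 in females (adjusted p = 0.00842) and 2.31 ± 0.25 in males (adjusted p = 2.65e-06), with a difference of 1.37 ± 0.34 (adjusted p = 0.0296).

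Among 17 chloride and bicarbonate channels and transporters tested (of 19 found), 3 rose and 6 fell in males (median −0.62), and 1 rose and 2 fell in females (median −0.08). Slc26a4, the anion exchanger pendrin, rose in both sexes, by 4.39 ± 0.67 in males (adjusted p = 5.95e-05) and 2.58 ± 0.62 in females (adjusted p = 0.00508). Its level was 18.7 ± 9.32 FPKM in bleomycin males and 0.882 ± 0.258 in sham males, and 12.8 ± 14.0 in bleomycin females and 2.14 ± 1.41 in sham females. Ano1, the calcium-activated chloride channel, fell in males by 0.97 ± 0.20 (adjusted p = 0.000894), and Slc26a9, an epithelial chloride channel, by 0.73 ± 0.23 (adjusted p = 0.0175). Their female changes were −0.08 ± 0.20 for Ano1 (adjusted p = 0.82) and −0.12 ± 0.23 for Slc26a9 (adjusted p = 0.77).

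Among 9 cation-chloride cotransporters and WNK kinases, relatives and regulators of Slc12a2, tested of 13 found, 1 rose and 2 fell in males (median 0.02), and 1 rose and 0 fell in females (median 0.00). Wnk1, the kinase at the head of the pathway that switches Slc12a2 on, was the female gene that rose, by 0.37 ± 0.09 (adjusted p = 0.00506), and its male change was 0.11 ± 0.09 (adjusted p = 0.323). Of 7 other cation channels and exchangers tested (of 16 found), 3 rose and 4 fell in males (median −0.54), and 1 rose and 1 fell in females (median −0.37). Of 8 other aquaporins found, 2 were tested, and Aqp5 was the one that passed, in males. Kcnj15, an inward rectifier potassium channel, fell in both, by 1.47 ± 0.33 in males (adjusted p = 0.00182) and 1.12 ± 0.33 in females (adjusted p = 0.0203).

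**Figure D5:**
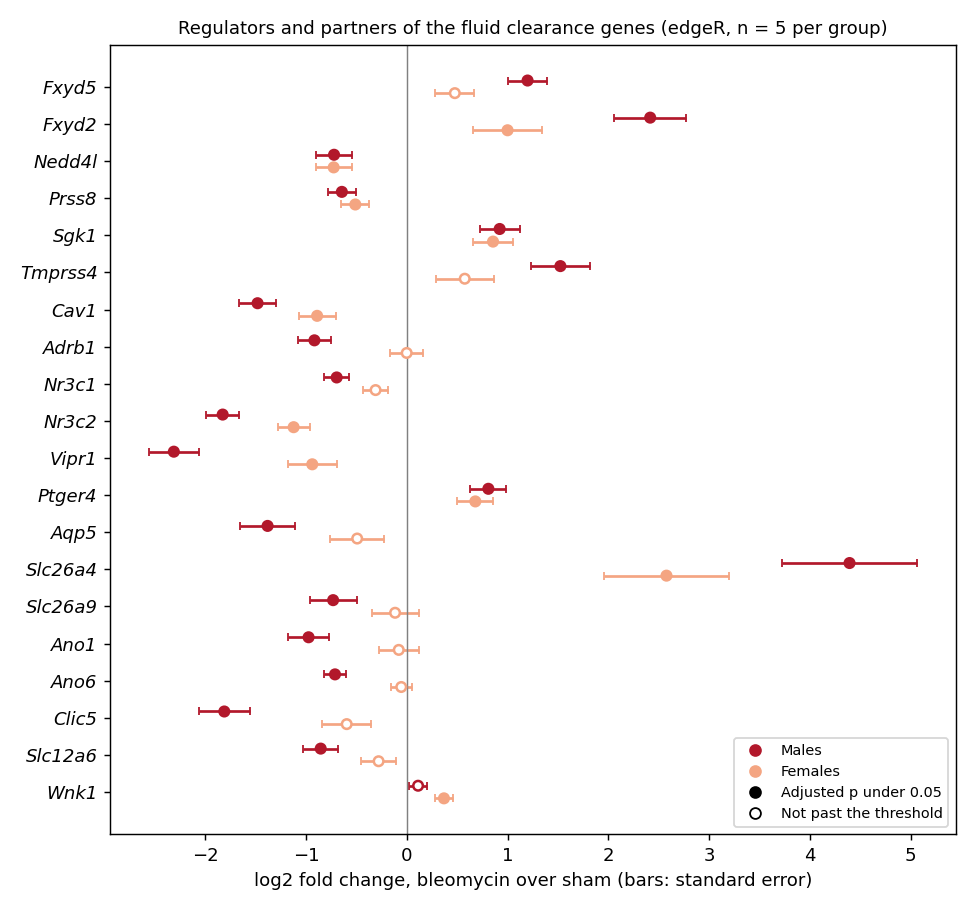
Log2 fold change of bleomycin over sham with SE for named genes of the pathway lists, in males and females (edgeR, n = 5 per group). Filled points have an adjusted p under 0.05 and open points do not. Nr3c2, Nedd4l and Prss8 lie left of 0 and Sgk1, Fxyd2 and Slc26a4 right of 0 in both sexes.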

How the data were processed

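The values come from whole-lung RNA of 20 animals in 4 groups of 5, sorted by the titles and treatment labels. Per the labels' protocols, TRIzol RNA of integrity 7.0 or better was captured by poly-A, built into stranded TruSeq libraries over 15 cycles and read as pairs of 150 bases. Per the labels' protocols, the authors trimmed with Cutadapt 1.10, checked quality with FastQC 0.10.1, aligned to a rat genome with HISAT2 2.0 and made FPKM values with StringTie 1.3.4. The deposited table also holds counts per gene and library, per the file headers. How the authors derived these counts, and whether strand was used, is not given in the sources used here. Multiples of 4 are in excess among the deposited counts, where the value 4 occurs 7103 times, 3 occurs 3459 times and 5 occurs 2447 times. The organism label reads Mus musculus, but the stock and the gene identifiers belong to rat, and the animals were treated as rats. The labels name Ensembl 112 beside Rnor 6.0, so the build is unsettled and no sequence is shown. Every value column was mapped to a sample, and no pair of libraries held identical counts.

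Genes with an FPKM of at least 0.5 in at least 5 libraries were tested (15875 of 23799, all 9 genes among them). Counts were compared with edgeR 4.0.16 in R 4.3.3 (TMM factors, robust quasi-likelihood test, 1 mean per group, 20 libraries in 1 model, prior count 0.125), two-sided, with Benjamini-Hochberg adjustment over all tested genes. SEs were derived from the fold change and its F statistic. Of the 6 contrasts, 3 set bleomycin against sham (males, females, mean of both), 2 set females against males within a treatment, and 1 was the female minus the male response. P-values cover the spread between animals. Correlations between genes used log2 CPM after subtraction of group means. Those with a marker sum set log2 CPM against log2(summed FPKM + 0.1), both after that subtraction. Among the 9 genes Aqp3 had the fewest counts, 36 to 3254 per library, and each of the others had at least 1016.

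The members and lists were chosen with earlier results of these data known. Named besides the 9 genes were the 2 genes most like each of them, 12 genes fixed in the lists, and up to 3 genes with the smallest p in each list and contrast. Some genes of the lists are counted but not reported here by name. Scnn1d, Fxyd3 and Wnk4 were not found under these symbols and were not analysed here. Of the marker lists, those for club, ciliated and leukocyte genes, fibroblasts and epithelium in general are given in the closing section. Alternatives were another filter or none, other scaling factors, DESeq2 1.42.0, limma 3.58.1 on log2(FPKM + 0.1) and log2(FPKM + 1), limma-voom with sample weights, counts divided by 4, edgeR without robust estimation, the replicate number as a block, only the groups compared, a covariate for mitochondrial counts, and leaving out libraries.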

Additional observations from a re-analysis of the deposited data

Results flagged for a closer look

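In 36 combinations of gene and group, 2 libraries stood apart from the other 4 of their group by Dixon's criterion, where chance gives about 1 in 20. Aqp3 was at 4.92 FPKM in sham female 5, with the other sham females at 0.559 to 1.42, a gap of 0.802 of the whole range. The sum of the basal cell markers was also highest in that library, at 11.1 FPKM. Cftr was at 3.14 FPKM in sham female 2, with the other sham females at 1.85 to 2.17, a gap of 0.753 of the range.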

How the results depend on the processing

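Of 1872 values of the 9 genes under alternatives, 1785 kept direction or stayed below the threshold as before, 20 lost a call, 67 gained one, and no called value reversed. In males, where 2 of 9 passed, 5 passed with library totals in place of TMM and with limma-voom with sample weights, 4 with DESeq2, limma on log2(FPKM + 0.1) and on log2(FPKM + 1), and 1 with only the groups compared. In females, where 0 passed, 4 passed with limma-voom and with only the groups compared, 2 with DESeq2 and without the 5 libraries with neighbouring-organ transcripts, and 1 with library totals and with either limma fit. Between bleomycin females and bleomycin males, where 2 passed, 3 passed with DESeq2, library totals, either limma fit and limma-voom, and Scnn1b gained a call each time. With limma-voom Scnn1a also gained a call (adjusted p = 0.0421), and Aqp3 lost its call (adjusted p = 0.0536). In the same comparison 1 passed without a filter, and 0 with only the groups compared, with the mitochondrial covariate or without those 5 libraries. For the difference in response, 0 passed, and 2 with limma-voom (Scnn1g and Scnn1b). Leaving out each library in turn gave 2 to 5 in males, 0 to 2 in females, 3 to 5 averaged over the sexes, 1 to 3 between bleomycin females and males, 0 between sham groups and 0 to 2 for the difference in response. With a replicate block, 4 passed in males and 1 between bleomycin females and males. The replicate numbers share nothing in the labels, and of 30 same-numbered pairs of libraries 10 had deviations that correlated above 0.1 (range −0.14 to 0.43) and 12 correlated best with their own number. Over all tested genes, the calls for the difference in response numbered 903 and ranged from 0 with the mitochondrial covariate to 3455 with limma-voom, those between bleomycin females and males 3239 and from 29 with only the groups compared to 4891 without bleomycin male 4, those between sham groups 83 and from 37 to 856, and those in females 3431 and from 2368 to 6402. With upper quartile factors, the share of higher calls was 45.5% against 57.2% between bleomycin females and males and 50.5% against 64.1% for the difference in response. The cause was not tested for any of these.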

Other observations

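Several further marker lists were measured beside the 9 genes. Their counts stand against 22.6% of all tested genes higher and 19.3% lower in males, and 13.2% higher and 8.38% lower in females. Of 8 club and secretory cell genes, 1 rose and 2 fell in males and 2 rose and 2 fell in females. Their summed FPKM was 2453 to 17602 in bleomycin males, against 19111 to 44904 in sham males, and 11261 to 17471 in bleomycin females, against 26612 to 41764 in sham females. Of 8 ciliated cell genes, 0 rose and 1 fell in either sex, with sums of 286 to 1048 FPKM in bleomycin males and 566 to 990.0 in sham males, and 408 to 580.5 in bleomycin females and 767 to 1037 in sham females. Of 9 general epithelial genes, 1 rose and 2 fell in males and 0 rose and 1 fell in females. Their sum was 577 to 1091 FPKM in bleomycin males and 546 to 834 in sham males, and it correlated with Atp1b1 at 0.73 over 20 libraries after subtraction of group means (0.92 without bleomycin males).

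Of 8 fibroblast and smooth muscle genes, 6 rose and 0 fell in each sex, with sums of 1395 to 1962 FPKM in bleomycin males and 457 to 741 in sham males, and 1108 to 1397 in bleomycin females and 259 to 356 in sham females. Of 8 leukocyte genes, 3 rose and 1 fell in males and 2 rose and 0 fell in females. The part of these lists in the levels of the 9 genes was not tested.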
